A study of Homo sapiens with 2 samples.

Results

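ATF1 binding was described at 10 genes: C1D, which encodes a cofactor of the nuclear RNA exosome, and 9 genes of exosome subunits (EXOSC1, EXOSC2, EXOSC3, EXOSC4, EXOSC5, EXOSC7, EXOSC8, EXOSC9 and EXOSC10). The members were the rows of the deposited ATF1 peak table that carry one of these gene names. Of the 10 genes, 7 had such a row among 15064 listed peaks, and EXOSC1, EXOSC2 and EXOSC8 had none. C1D was chosen by its fold enrichment, which is among the highest of the table, so its strength is given as a description. The data come from 1 chromatin immunoprecipitation library of HCT116 cells, a human colon adenocarcinoma line, that had been given ATF1 with a 3xFlag tag and was precipitated with an antibody to the tag. The series also has 1 input DNA library, which was not analysed here, and no untagged or treated group enters any value. ATF1 came from the introduced tagged construct, so its level may differ from that of the cells' own protein, and this was not measured. Neither library has a replicate, so no value has a replicate error and no test between conditions can be made.

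The RNA exosome is a protein complex that degrades and trims RNA from its 3′ end, in the nucleus and in the cytoplasm. A ring of RNase PH-like subunits (EXOSC4 to EXOSC9) and a cap of RNA-binding subunits (EXOSC1, EXOSC2 and EXOSC3) form a barrel without catalytic activity of its own in human cells, and EXOSC10, DIS3 or DIS3L supply the nuclease. C1D, the human relative of yeast Rrp47, binds EXOSC10 and is also known as a nuclear receptor corepressor and as a partner of the DNA-dependent protein kinase. ATF1 is a basic leucine zipper factor of the CREB family, whose textbook binding site is the cAMP response element (CRE), TGACGTCA, or its core TGACG, which reads CGTCA on the other strand.

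The sequences around the start sites are shown first for 6 genes that had a peak there, because the presence and place of core motifs differed among them. Each is the stretch from 120 bases before to 30 bases from the start site onward, from RefSeq promoter sequences of GRCh38.p14, the assembly of hg38, written 5′ to 3′ on the gene's strand with core motifs in capitals. The C1D stretch is chr2:68062975-68063124 and the EXOSC9 stretch chr4:121801203-121801352, followed by EXOSC7 (chr3:44976124-44976273), EXOSC3 (chr9:37785063-37785212, the first of its 2 listed start sites), EXOSC5 (chr19:41397330-41397479) and EXOSC10 (chr1:11099840-11099989). EXOSC9 and EXOSC7 lie on the plus strand and the other 4 on the minus strand.
C1D: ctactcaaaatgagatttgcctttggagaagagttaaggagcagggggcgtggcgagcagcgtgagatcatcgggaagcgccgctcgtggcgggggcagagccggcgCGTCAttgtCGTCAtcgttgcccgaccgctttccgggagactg
EXOSC9: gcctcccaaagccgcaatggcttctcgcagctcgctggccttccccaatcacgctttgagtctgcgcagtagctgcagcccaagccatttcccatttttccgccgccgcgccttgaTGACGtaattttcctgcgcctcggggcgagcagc
EXOSC7: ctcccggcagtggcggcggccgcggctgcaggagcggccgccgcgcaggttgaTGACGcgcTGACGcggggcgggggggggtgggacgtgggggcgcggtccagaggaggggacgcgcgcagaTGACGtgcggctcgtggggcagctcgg
EXOSC3: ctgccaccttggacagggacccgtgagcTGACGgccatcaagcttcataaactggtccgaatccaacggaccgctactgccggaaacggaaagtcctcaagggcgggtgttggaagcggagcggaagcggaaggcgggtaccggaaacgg
EXOSC5: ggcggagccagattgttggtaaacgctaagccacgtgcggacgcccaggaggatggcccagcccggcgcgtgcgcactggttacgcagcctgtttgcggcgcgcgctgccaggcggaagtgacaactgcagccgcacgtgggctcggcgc
EXOSC10: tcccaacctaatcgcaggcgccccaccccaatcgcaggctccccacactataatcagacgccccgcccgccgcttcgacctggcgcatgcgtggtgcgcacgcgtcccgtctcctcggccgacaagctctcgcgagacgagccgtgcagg

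Core motifs were searched on both strands in the whole window of 250 bases before to 50 bases from the start site onward, for the 8 members with a listed start site. C1D had 2 core motifs, both read as CGTCA, that begin 13 and 4 bases before the start site. EXOSC9 had 1, which begins 4 bases before the start site. EXOSC7 had 4, all read as TGACG, of which 2 begin 67 and 59 bases before the start site and 2 lie after it. EXOSC3 had 1, beginning 92 bases before its first start site, and EXOSC8 had 1, beginning 186 bases before its start. EXOSC2, EXOSC5 and EXOSC10 had none in this window. A core motif was thus in 5 of 8 windows of members, counting the first start site of EXOSC3, beside 24.5% of all 34789 RefSeq start-site windows of this length. The share was 36.4% in windows with a peak summit within 1 kb, which EXOSC8, with a core motif, and EXOSC2, without one, did not have. It was 56.2% where the strongest such summit was in the top 20% of the table by fold enrichment. That was so at C1D, EXOSC9, EXOSC7, EXOSC3 and EXOSC5. The full CRE was in 0 of 8 windows, beside 1.84% of all windows. With 1 mismatch to the full CRE allowed, 2 members had a match, TGTCGTCA at C1D and TGACGTAA at EXOSC9, beside 11.8% of all windows and 29.5% of those whose strongest summit within 1 kb was in the top 10% of the table by fold enrichment, as at both genes. Both of these matches contain one of the core motifs already counted, and both genes held the strongest member peaks. A match is a string of letters and was not tested as a binding site.

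The peaks of the 7 genes spanned most of the range of the table. Fold enrichment, the authors' ratio of ATF1 signal to a background that is not specified, ran from 4.61 at EXOSC10 to 89.65 at C1D, which is 19.4 times as much. Their median was 11.89, or 10.33 without C1D, beside 6.97 for all listed peaks. C1D was chosen by its fold enrichment, so its part in this median and in the next count was set in advance. Of the 7 peaks, 4 were in the top 20% of the table by fold enrichment, from 10.78 upwards, which by construction holds 20.0% of all listed peaks. Those 4 belonged to C1D, EXOSC9, EXOSC7 and EXOSC3, the same 4 genes that had both a peak summit within 1 kb of a start site and a core motif in its window. The peak at the EXOSC5 start, listed under another name, was also in the top 20% at 22.30-fold, and the EXOSC5 window had no core motif. Over all protein-coding genes with a peak summit within 1 kb of either end, the strongest such peak per gene had a median of 7.81-fold. Of these strongest peaks, 30.2% reached the top 20% of the table. They are the highest per gene, and a shared peak counts for each of its genes, so they do not compare directly with single rows of the table. By the same rule the 8 members with such a peak had a median of 15.57-fold, and 5 of these peaks reached the top 20%, C1D included. EXOSC1, EXOSC4 and EXOSC5 enter this count by peaks listed under the names of neighbours. The 7 peaks had a median length of 1378 bp, beside 1551 bp in the table, and the authors classed 5 of them as exonic and 2 as intronic. These classes need not give the place of the summit. Those at C1D (exonic) and EXOSC7 (intronic) lay 18 and 48 bp upstream of the listed start.

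**Figure D1:**
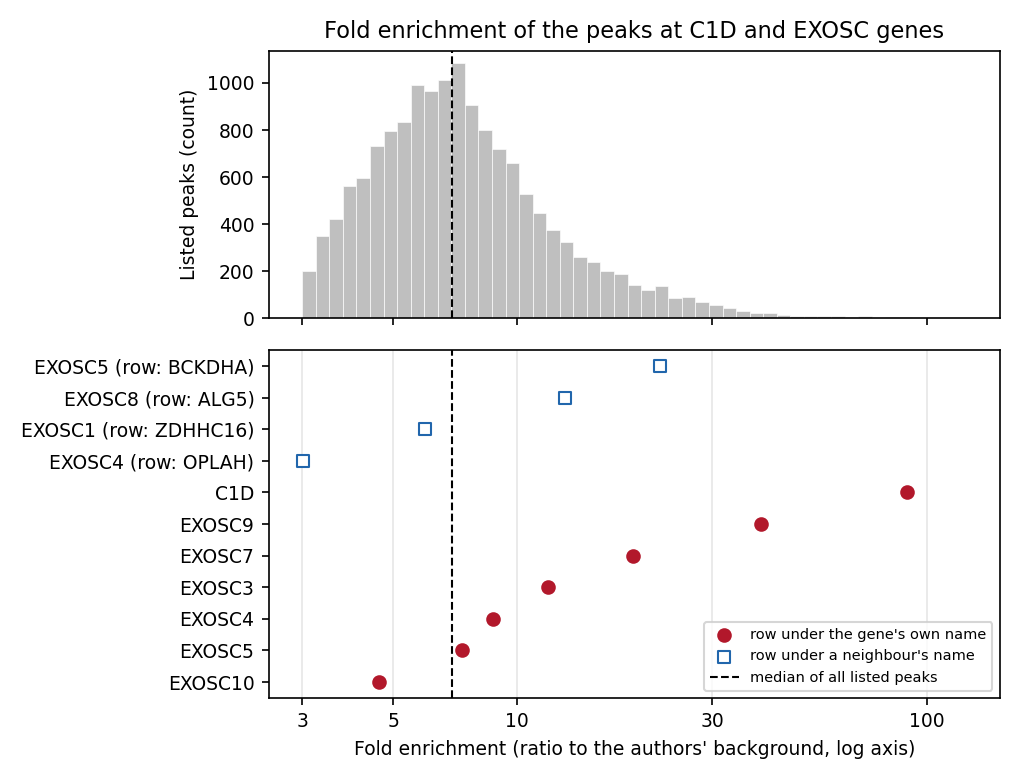
Fold enrichment of all 15064 listed peaks (top, count of peaks) and of the peaks at each gene (bottom), on a shared log axis, with the median of all listed peaks dashed. Filled circles are rows under the gene's own name, from 4.61 at EXOSC10 to 89.65 at C1D, and open squares are peaks near a member that the table lists under a neighbour's name, up to 22.30 for the BCKDHA peak at the EXOSC5 start.

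C1D, the cofactor, had the strongest of these peaks (chromosome 2, 68062477 to 68063784, exonic). It held 298 tags (exact Poisson 95% interval 265 to 334, counting error only) and ranked 5 of 15064 by fold enrichment. The summit lay 18 bp upstream of the start site and 7 bp from the middle of the nearer core motif. The peaks ranked just above it were at CDADC1 (90.00-fold), YIPF6 (96.84-fold) and the pseudogene GTF2IP12 (104.74-fold). Just below it were RAD18, a ubiquitin ligase of DNA damage bypass (88.56-fold), CCNH, a cyclin (87.37-fold), and AASDH (85.42-fold). Tags in these 7 peaks ran from 227 at CCNH to 401 at RAD18, and C1D was within that range. No other gene start was within 1 kb of the C1D summit, and the nearest protein-coding gene, DNAAF10, was 66801 bp away.

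EXOSC10, the nuclear 3′ to 5′ exonuclease that C1D binds, had the weakest of the 7 peaks (chromosome 1, 11098792 to 11100429, exonic). It reached 4.61-fold with 172 tags (interval 147 to 200), and 82.8% of listed peaks had at least its fold enrichment. The summit was 102 bp downstream of the start site and also within 1 kb of both listed starts of the antisense gene EXOSC10-AS1, which are 150 and 194 bp from that of EXOSC10 on the other strand. C1D and EXOSC10 thus stood at opposite ends of these genes by fold enrichment. By tags they were closer, though their intervals do not overlap.

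Among the cap subunits, EXOSC3 had a peak at its start, EXOSC1 had one only under a neighbour's name, and EXOSC2 had none. The EXOSC3 peak (chromosome 9, 37784239 to 37785616, exonic) had 11.89-fold enrichment and 213 tags (interval 185 to 244), with its summit 115 bp downstream of the nearer start site and 233 bp from its core motif. EXOSC1 lies 169 bp from ZDHHC16, a palmitoyltransferase gene, and a peak over this gap is listed under ZDHHC16 (chromosome 10, 97445635 to 97447172). That peak had 5.98-fold enrichment and 135 tags (interval 113 to 160), and its summit was 213 bp from the end of EXOSC1. No start site of EXOSC1 was used, so this distance is to the outer end of the gene. For EXOSC2 the nearest listed summit, at ABL1, was 7765 bp from the end of the gene and 10.04-fold. Each gene name occurs once in the table and the library's depth is unknown, so a missing row does not show that ATF1 was absent.

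Among the ring subunits, EXOSC9 and EXOSC7 had the strongest peaks under their own names, EXOSC9 by fold enrichment and EXOSC7 by tags. EXOSC9 (chromosome 4, 121800727 to 121801919, exonic) reached 39.53-fold with only 123 tags (interval 102 to 147), and its summit lay 40 bp downstream of the start site, 42 bp from the middle of the core motif. EXOSC7 (chromosome 3, 44975317 to 44977049, intronic) reached 19.25-fold with 693 tags (interval 642 to 747), the most tags of the 7. The EXOSC7 start is 70 bp from that of ZDHHC3, which is read in the other direction, and the summit lay between both, 48 bp from EXOSC7 and 22 bp from ZDHHC3. It was 9 bp from the middle of the nearest of the 4 core motifs. Whether the peak belongs to EXOSC7, to ZDHHC3 or to both cannot be told apart from the table. The C1D and EXOSC9 peaks had no such partner.

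At EXOSC5 and EXOSC8 the peak nearest the start site carried the name of the neighbouring gene. At EXOSC4 the named peak lay inside the listed span of the gene, which has no listed start site. The row named EXOSC5 (chromosome 19, 41386091 to 41387203) had 7.36-fold enrichment and 57 tags (interval 43.2 to 73.9), and its summit was 10678 bp downstream of the start site, 307 bp inside the other end of the gene. A stronger peak at the EXOSC5 start is listed under BCKDHA, a subunit gene of the branched-chain ketoacid dehydrogenase, whose start is 459 bp away on the other strand. It had 22.30-fold enrichment and 197 tags (interval 170 to 227), with the summit 33 bp upstream of the EXOSC5 start and 426 bp from that of BCKDHA, and no core motif in the EXOSC5 window. EXOSC8 starts 1419 bp from the nearer listed start of ALG5, a gene of N-glycosylation. A wide peak over both starts is listed under ALG5 (chromosome 13, 36998381 to 37001428, 3048 bp, 13.15-fold, 380 tags), but its summit was 9 bp from the ALG5 start and 1410 bp upstream of EXOSC8. The EXOSC4 row (chromosome 8, 144077962 to 144079516, intronic) had 8.77-fold enrichment and 329 tags (interval 294 to 367), and its summit was 2039 bp from the nearer end of the listed gene. The gene LOC124902038 also has an end within 1 kb of this summit. No start site of EXOSC4 was used, so whether this peak lies at a start cannot be told. A weak peak at the other end of EXOSC4, of 3.01-fold near the table's lowest value, is listed under the neighbour OPLAH.

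**Figure D2:**
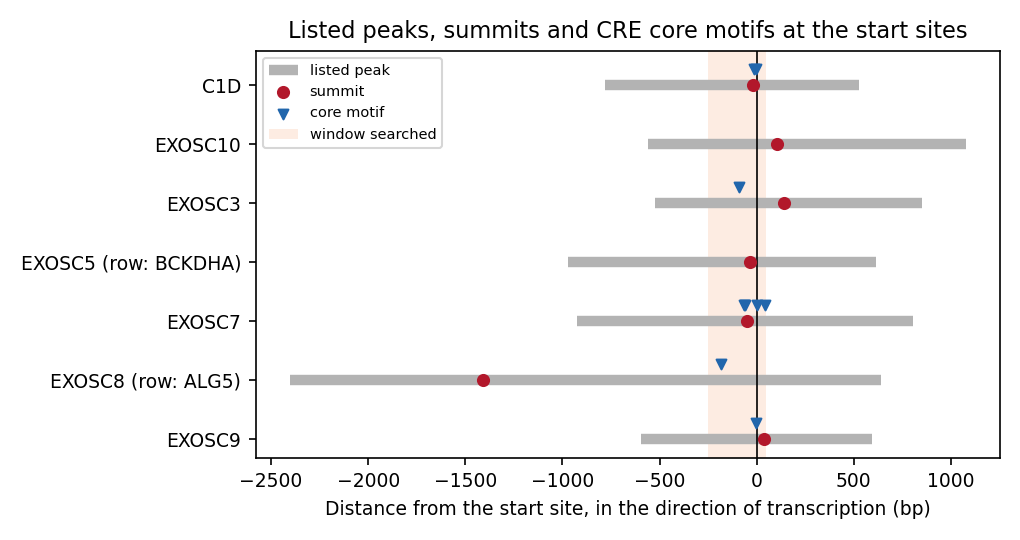
Listed peaks (bars), summits (circles) and CRE core motifs (triangles) by distance in bp from the first listed start site of each gene, positive in the direction of transcription, with the searched window shaded. Summits at C1D, EXOSC9, EXOSC7 and EXOSC5 lie within 50 bp of the start, whereas the ALG5 peak has its summit 1410 bp upstream of EXOSC8.

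Counting any listed peak with a summit within 1 kb of either end of the gene, whichever gene the table assigns it to, 8 of the 10 members had one, against 48.0% of 19974 protein-coding genes. C1D was chosen for its peak, so the members' share is a description. EXOSC2 and EXOSC8 were the 2 without one. EXOSC1 was counted only through the ZDHHC16 peak (5.98-fold) and EXOSC4 only through the OPLAH peak (3.01-fold). The row named EXOSC4 was more than 1 kb from both listed ends of that gene and was not counted. With only peaks at or above the median fold enrichment, the count was 5 of 10, against 27.9% of protein-coding genes. By start sites, 6 of the 8 members with a listed start had a summit within 1 kb of it, against 50.4% of 15812 protein-coding genes. Of those 6 peaks, the ones at EXOSC5, EXOSC7 and EXOSC10 were also within 1 kb of the start of another gene, and the same held for 36.7% of the 7964 protein-coding genes with a summit within 1 kb of a listed start.

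The order of the genes depended on the measure. By the authors' score, whose basis is not stated, C1D (2785.99) was above 99.3% of listed peaks, EXOSC7 (2300.21) above 98.6% and EXOSC9 (830.14) above 88.5%. By tags, EXOSC7 was above 97.1% of listed peaks, EXOSC4 above 77.3%, C1D above 73.3% and EXOSC9 above 41.7%. C1D and EXOSC9 therefore stood out by fold enrichment far more than by tags, and EXOSC7 was high by all 3 measures. EXOSC10 was above 17.2% of peaks by fold enrichment and above 51.8% by tags. EXOSC5, by the row under its own name, was low by score (31.0%) and by tags (23.8%). The tag intervals of C1D and EXOSC4 overlap, as do those of EXOSC3 and EXOSC10.

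**Figure D3:**
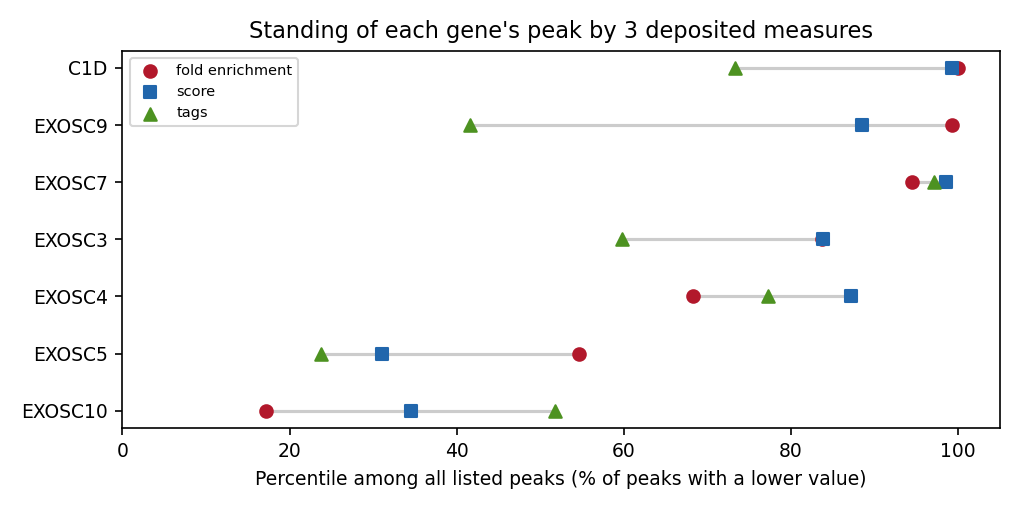
Percentile of each gene's own row among all 15064 listed peaks by fold enrichment (circles), score (squares) and tags (triangles). C1D runs from 73.3 by tags to above 99 by the other 2 measures, EXOSC9 from 41.7 to 99.3, and EXOSC7 stays above 94 by all 3.

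Other genes of RNA decay and processing, and partners of C1D, were described from 8 lists with 84 entries, again counting summits within 1 kb of either gene end (48.0% of all protein-coding genes). In all, 73 of the 84 had such a peak, with a median of 9.69-fold for the strongest one per gene, beside 7.81-fold over all protein-coding genes with such a peak. Of the exosome subunits that are not members, DIS3, the main nuclear nuclease of the core, had 11.15-fold enrichment and the ring subunit EXOSC6 had 8.82-fold, whereas DIS3L had no such peak. The list of nuclear cofactors, many of which bring RNA to the exosome, had one at 15 of 17 genes. It also holds UTP3 (6.83-fold, 52 tags) and NGDN (10.22-fold, 31 tags), for which this role is not claimed. The strongest were NCBP2 of the cap-binding complex (23.21-fold), RBM7 of the nuclear exosome targeting complex (19.93-fold), ZCCHC7 of the TRAMP complex (16.81-fold) and ZC3H18 (11.51-fold). SKI cofactors feed RNA to the cytoplasmic exosome, and HBS1L and PELO, listed with them, act in the rescue of stalled ribosomes. This cytoplasmic list had a gene-end peak at 4 of 5 genes. SKIC8 led with 32.71-fold, in a row under its older name WDR61, followed by HBS1L (12.35-fold), SKIC3 (7.27-fold, listed under ARSK) and PELO (5.99-fold, listed under ITGA1). The row named PELO, at 35.96-fold, was more than 1 kb from both listed ends of that gene and was not counted.

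Exonucleases outside the exosome had a gene-end peak at 8 of 10 genes, led by DXO (35.29-fold), the 5′ to 3′ exonuclease XRN1 (23.52-fold), the mitochondrial PNPT1 (20.68-fold) and REXO4 (16.73-fold, listed under ADAMTS13). The row named REXO4 was lower, at 5.22-fold. All 20 genes of decapping and deadenylation had one, with EDC3 at 28.84-fold, CNOT9 at 26.06-fold, CNOT7 at 20.23-fold and DCP1A at 19.67-fold. Nonsense-mediated decay genes had one at 7 of 10, with SMG1 highest at 14.21-fold, SMG9 at 13.57-fold, SMG8 at 10.53-fold and UPF3B at 8.92-fold. The SMG1 value rests on 54 tags and a row named for an uncharacterised gene, and SMG1 has near-identical copies in the genome, so it is uncertain. All 11 RNase P and MRP protein genes had one, led by POP4 (79.64-fold), RPP14 (25.65-fold), RPP30 (21.29-fold) and POP1 (16.80-fold). Of 8 genes listed beside C1D for translin, DNA repair and repression, 6 had one. TSNAX, which encodes the translin partner TRAX that C1D binds, reached 21.64-fold, its partner TSN 13.15-fold, and the DNA-dependent kinase PRKDC 8.86-fold in a row listed under MCM4. The row named PRKDC was 6.69-fold. THRA and NR1D1 shared 1 peak of 7.93-fold, so this list has fewer independent peaks than genes. None of the 84 genes had a peak as strong as that of C1D, and the nearest was POP4. C1D was chosen for its peak, which ranked 5 of 15064, so this was nearly fixed in advance.

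**Figure D4:**
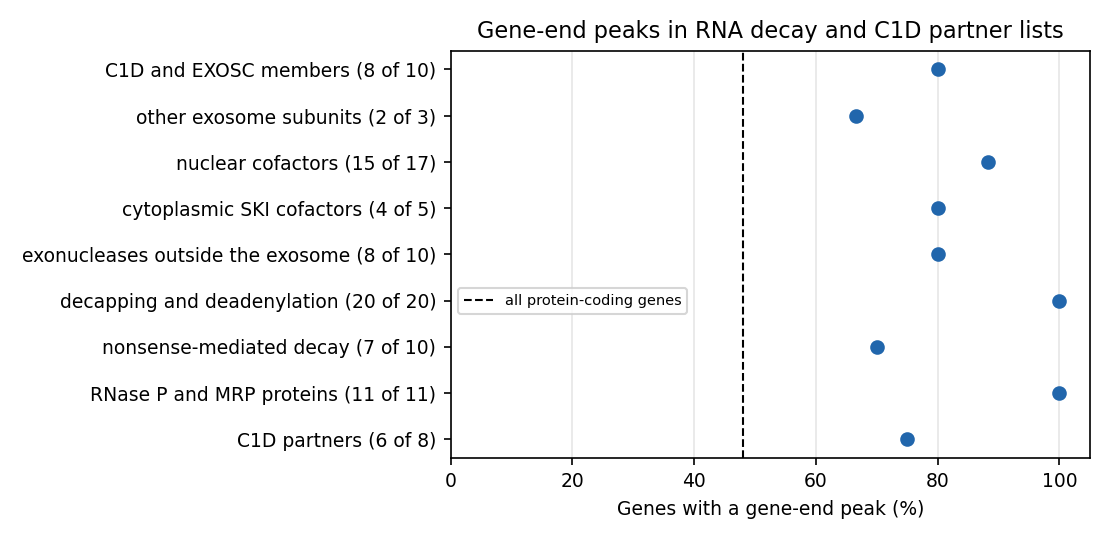
Share of genes with a peak summit within 1 kb of either end (gene-end peak) in the members and in 8 other lists, with the share of all protein-coding genes dashed at 48.0%. The members stand at 8 of 10, and decapping and deadenylation genes (20 of 20) and RNase P and MRP protein genes (11 of 11) are complete.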

How the data were processed

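The submitters' processing notes name CASAVA, Bowtie2, bedtools and the hg38 build. The peak caller, with its control and settings, is not given in those notes or in the labels. Tags, per the file headers, are raw counts in each peak. Fold enrichment was deposited as a ratio to an unspecified background (lowest value 3), and the score was deposited with no stated basis (lowest value 50). Both are the authors' own values and serve here to rank or describe peaks of this 1 list. Each gene name occurs once, and the 3272654 tags in peaks are not the depth of the library, which is unknown. Another 1 line without a position was left out.

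Members were matched by gene name. Peak summits were set against gene ends and start sites from RefSeq tables of GRCh38.p14 (19974 protein-coding genes; 8 of 10 members have a listed start site). Listed start sites covered 15812 of the protein-coding genes and none on chromosome 8, where EXOSC4 lies, so shares by start site or motif leave the rest out. Alternative start sites of a gene were kept as separate windows. Named were all members, genes sharing their peaks, the 3 peaks ranked above and below C1D, and the 4 strongest of each list. The members and lists were chosen with earlier results of these data known. The motif search was tested on simulated data. No test was run, since there is 1 library. Alternatives changed the window, peak threshold, ranking measure and motif. Intervals on tags are exact 95% Poisson intervals and cover counting error only. Values were computed in Python 3.11.15 with scipy 1.17.1, pandas 2.3.3 and numpy 2.4.6.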

Additional observations from a re-analysis of the deposited data

How the results depend on the processing

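The count of 8 members with a gene-end peak was 8 with a 500 bp window, 9 with 5 kb, 9 by any overlap with the window, 6 by the assigned peak only and 5 when only peaks at or above the median fold enrichment were used (EXOSC1, EXOSC4 and EXOSC10 dropped out). The same settings moved the share of all protein-coding genes from 48.0% to 41.3%, 61.6%, 53.9% and, for the stronger peaks, 27.9%; it was not computed for assigned peaks. It was 6 by listed start sites, a setting chosen after seeing the data. The median fold enrichment of 11.89 became 10.33 without C1D and 19.25 when EXOSC5 was given by the peak at its start site, the latter also chosen after seeing the data. The median percentile of the 7 peaks, 83.7 by fold enrichment, was 87.2 by score, 59.8 by tags and 76.2 by tags per kb. That of C1D fell from 99.97 to 99.3, 73.3 and 92.4 in the same order. Members with a CRE numbered 0 for the full site, 5 for the core motif and 2 with 1 mismatch. The count of full sites under the peak covers part of the same windows, so it could only be 0 as well. For each of these shifts the cause was not tested. No paired analysis was possible because the ChIP library has no replicate. The read depth is unknown, so a gene without a listed peak may still be bound.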

Other observations

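Core motifs (TGACG on either strand) were more frequent at start sites with stronger peaks across the whole table. Of RefSeq windows without a summit within 1 kb, 18.1% held a core motif and 0.972% the full CRE. Among windows whose strongest summit was in the top 10% of the table, from 14.87-fold upwards, 62.6% held a core motif and 12.9% the full CRE. C1D, EXOSC9 and EXOSC7 belong to the top 10% and all hold core motifs, while the EXOSC5 start, at 22.30-fold, is among the other windows of that class. The windows include alternative starts of 1 gene and are not independent, and they were not matched for base composition.

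The EXOSC7 window, with 4 core motifs in 1 direction, belongs to the 0.316% of all windows with 4 or more, and to the 2.33% of windows in the top 10%. C1D, with 2, belongs to the 5.99% of all windows with 2 or more, and to the 30.2% of windows in the top 10%. Both were singled out after their sequences were seen. In the 2953 windows that hold both a core motif and the summit of the strongest peak, the median distance from the summit to the middle of the nearest core motif was 32 bp, and 63.5% were within 50 bp. The distances at C1D (7 bp), EXOSC7 (9 bp) and EXOSC9 (42 bp) are all within 50 bp, and 24.2% of all such windows were within 10 bp. EXOSC3 is not part of this count because its summit lies outside the window, 233 bp from the core motif.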
